A study of Mus musculus with 15 samples.

Results

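Heat shock proteins and DnaJ proteins are the molecular chaperones that fold new proteins, refold damaged ones and pass others on for disposal. The genes described here are the rows of the gene table whose symbol begins with Hspa, Hspb, Hspd, Hspe or Hsph, or with Dnaj. They number 72 of 20610 genes, 27 of them named Hsp and 45 named Dnaj. By protein family they are 11 HSP70 genes, 3 HSP110 genes, 7 small heat shock proteins, 3 mitochondrial chaperonin genes, 4 DNAJA, 13 DNAJB and 28 DNAJC genes, and 3 others that carry the Hsp prefix. The choice went by name alone and used no measured value.

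Transcripts were measured by polyA RNA-seq in neurons, astrocytes and microglia, the 3 cell types that the study set against each other. The cells were taken by magnetic isolation from the cortex of male wild-type mice at postnatal day 28, with 5 libraries per cell type and no treatment. The labels do not say which library came from which animal or whether animals were pooled, so the p-values measure only the spread between libraries, which may be technical. Levels are TPM, transcripts as a share of all transcripts in a library, a unit that corrects for transcript length and can therefore be set side by side between genes. Means are given ± SD over 5 libraries. A gene is called different where the log2 difference of TPM + 1 was at least 1, that is 2-fold, and the Benjamini-Hochberg adjusted p of the limma test over all 13351 tested genes was below 0.05. On that scale the differences of genes with few transcripts are understated.

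An HSP70 protein binds an unfolded stretch of its client while it holds ADP and lets go when ADP is exchanged for ATP. J-domain proteins, named DnaJ after the bacterial founder, deliver clients to HSP70 and trigger ATP hydrolysis, and HSP110 proteins act as exchange factors that reset the cycle. Small heat shock proteins hold unfolding proteins without ATP, and the chaperonin of Hspd1 and Hspe1 encloses them in a mitochondrial chamber. In the brain these genes are studied for the protein aggregates of neurodegeneration and, for some J-domain proteins, for the recycling of synaptic vesicles.

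The libraries held their own markers and those of other cells. The 12 microglia markers summed to 70985 to 109897 TPM in microglia, and the 12 astrocyte markers to 21672 to 25002 TPM in astrocytes. The 12 neuron markers summed to 932 to 1871 TPM in neurons, 111 to 291 TPM in astrocytes and 20.3 to 154 TPM in microglia. The neuron libraries held more of the 12 endothelial markers, 7862 to 11803 TPM, against 814 to 1327 TPM in astrocytes and 135 to 252 TPM in microglia. The 12 mural cell markers summed to 1116 to 2825 TPM in neurons, 262 to 421 TPM in astrocytes and 53.4 to 143 TPM in microglia. Mature oligodendrocyte markers ran from 255 to 69938 TPM in microglia, with libraries 1 and 2 highest, against 221 to 10389 TPM in neurons and 469 to 3831 TPM in astrocytes. The 8 border macrophage markers summed to 34.95 to 59.6 TPM in neurons, 44.9 to 75.4 TPM in astrocytes and 1273 to 1882 TPM in microglia. The 3 red blood cell markers in the table summed to 194 to 1021 TPM in neurons, 4.49 to 10.6 TPM in astrocytes and 1.2 to 6.27 TPM in microglia, where 1 of them was at 0 in all libraries. None of the other markers was at 0 in all libraries of a cell type. In such bulk samples fewer cells of a type and less RNA per cell cannot be told apart.

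Of the 72 genes, 65 passed the filter of at least 1 TPM in at least 5 libraries. Dnajb8 and Dnajc5g were listed at 0 in every library, and Dnajb7, Dnajc22, Hspa1l, Hspb7 and Hspb9 stayed below the filter. Summed TPM of all 72 genes was 4459 ± 853 in neurons, 3480 ± 383 in astrocytes and 2457 ± 182 in microglia, or 0.446%, 0.348% and 0.246% of all transcripts in neurons, astrocytes and microglia. Hspa8 alone supplied 31.5 ± 4.35% of that sum in neurons, 25.6 ± 2.0% in astrocytes and 28.2 ± 6.22% in microglia. Hspb1 averaged 793 TPM in neurons, 152 TPM in astrocytes and 23.1 TPM in microglia. The sum thus follows a few abundant members, and the median log2 difference of the tested members between neurons and astrocytes was -0.10. At 100 TPM or more stood 8 genes in neurons, 8 in astrocytes and 6 in microglia, while 8, 9 and 11 genes were below 1 TPM in neurons, astrocytes and microglia.

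Among the tested genes, 4 were called higher in neurons than in both astrocytes and microglia. They were Hspb1, Hspb2, Hspa12b and Dnajc5b, and they made up 6.15% of the members against 9.58% of all tested genes. Dnajc5b passed the filter on low values only through its neuron libraries, so its call is no support for a difference. Another 6 were called higher in astrocytes than in both neurons and microglia, among them Hspa2, Hspb6, Hspb8, Dnajb9 and Dnajc15 (9.23% of members, against 10.2% of all genes). Hspb3 was the 1 member called higher in microglia than in both others (1.54%, against 7.42% of all genes). None of these shares was above that of all genes.

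**Figure D1:**
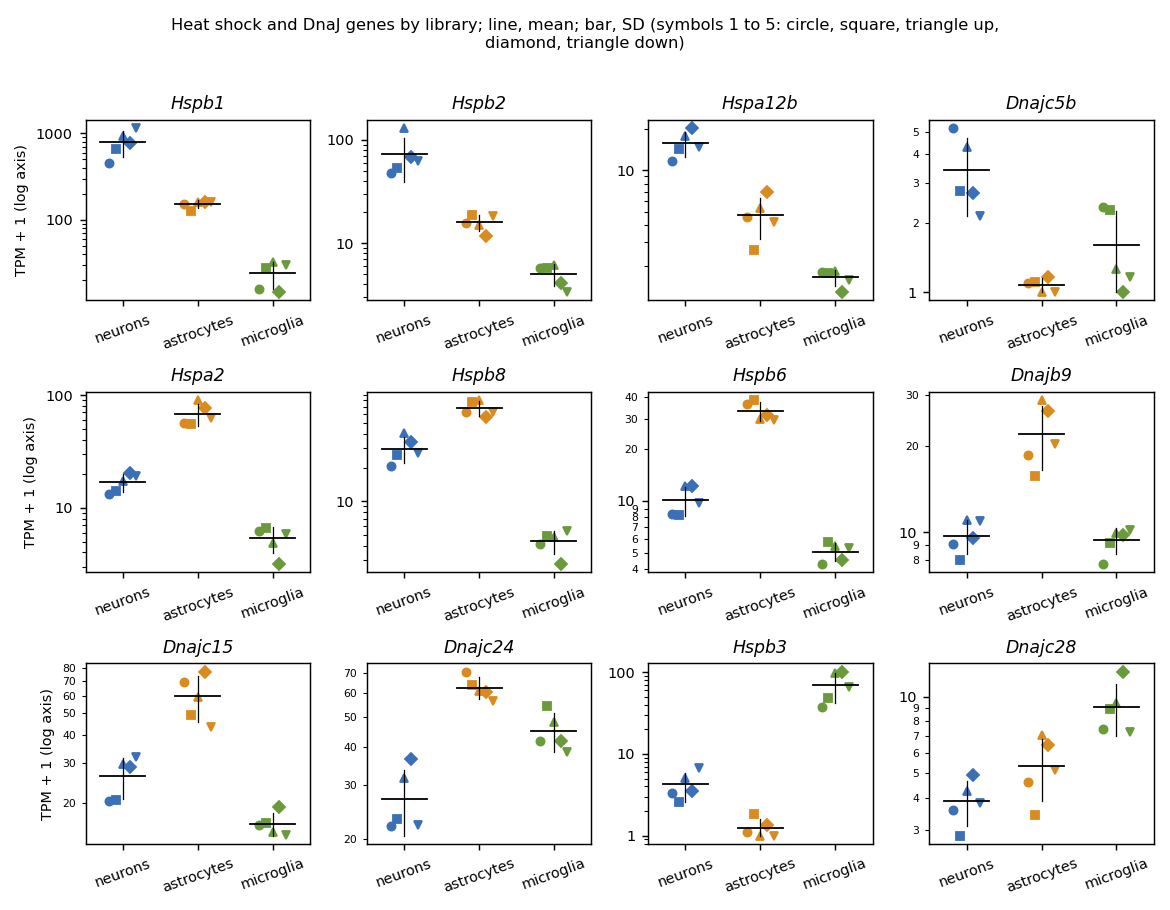
TPM + 1 on a log axis for 12 heat shock and DnaJ genes in each of the 5 neuron, 5 astrocyte and 5 microglia libraries, with the mean as a line and the SD as a bar; symbols give the library number. The first row holds the 4 genes called higher in neurons than in both others, Hspb3 reached 36.5 to 101 TPM in microglia, and Dnajc24 and Dnajc28 were each called in 1 comparison.

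The largest log2 difference in favour of neurons over astrocytes, and the largest in each direction against microglia, were those of small heat shock proteins. All 5 tested members of this family were called in at least 2 of the 3 comparisons, and each of the cell types held the highest level of at least 1 of them. Their promoters are shown for the genes that led in neurons and in microglia, as the 250 bases before the RefSeq start on GRCm38.p6, with capitals on GAANNTTC, a pair of facing units of the heat shock element that heat shock factor 1 binds.
Hspb1, chr5:135887669-135887918, plus strand: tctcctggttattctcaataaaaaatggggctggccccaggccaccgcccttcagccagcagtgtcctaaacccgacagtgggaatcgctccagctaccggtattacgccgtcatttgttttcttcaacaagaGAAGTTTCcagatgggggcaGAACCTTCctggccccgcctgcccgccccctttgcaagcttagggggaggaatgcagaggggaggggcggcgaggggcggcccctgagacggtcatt
Hspb3, chr13:113663677-113663926, minus strand: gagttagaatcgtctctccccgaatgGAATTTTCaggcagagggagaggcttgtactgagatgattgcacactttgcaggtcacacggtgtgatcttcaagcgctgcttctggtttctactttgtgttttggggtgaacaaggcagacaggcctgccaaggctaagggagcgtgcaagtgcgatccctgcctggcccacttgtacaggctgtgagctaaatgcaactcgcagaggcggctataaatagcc
The Hspb1 window held 2 such pairs and the Hspb3 window 1. The pair stood on either strand in 11 of the 59 members with a RefSeq promoter (18.6%), against 7.73% of 27025 genes. Among these 11, Hspd1 and Hspe1 share the same matched bases, and the windows of Hspa1a and Hspa1b are nearly identical. A match is a stretch of letters and not a shown binding site.

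Hspb1, which encodes the small chaperone HSP25 (HSP27 in humans) and binds to actin filaments (chr5:135887919-135889563, mm10), was the leading example. Hspb1 stood at 458, 664, 921, 775 and 1146 TPM in neurons, 153, 125, 161, 159.6 and 161 TPM in astrocytes and 14.8, 26.9, 31.2, 13.5 and 29.2 TPM in microglia. No library of one cell type reached the range of another. The log2 difference was 2.32 ± 0.24 (SE) between neurons and astrocytes (4.98-fold, adjusted p = 3.47e-07) and 5.06 between neurons and microglia (33.3-fold, adjusted p = 4.86e-12). Between astrocytes and microglia it was 2.74 (6.68-fold). Of the 150-base stretches of the Hspb1 transcript 36.6% also occur in the pseudogene Hsp25-ps1, so part of its count may be shared.

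Hspb2 (chr9:50751078-50752354, mm10), best known from muscle, followed the same order of cell types at a lower level. Hspb2 was at 46.8, 52.7, 129, 67.2 and 61.9 TPM in the neuron libraries, 14.5, 17.9, 13.8, 10.7 and 17.4 TPM in the astrocyte libraries and 4.76, 4.71, 5.09, 3.14 and 2.33 TPM in the microglia libraries. Neuron library 3 was far above the other neuron libraries, and the ranges of the cell types did not overlap. The log2 difference was 2.12 against astrocytes (adjusted p = 1.02e-06) and 3.797 against microglia (adjusted p = 2.32e-10). Hspb2 lies head to head with Cryab, another small heat shock protein, and 30.2% of its exon bases overlap Cryab on the opposite strand; whether reads were counted by strand is not given in the sources used here. Cryab itself was at 304, 359.5, 307, 241 and 319.8 TPM in neurons, 458, 511, 385, 372 and 436 TPM in astrocytes and 1212, 1689, 297, 25.6 and 259 TPM in microglia, and was called in no comparison.

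The endothelial, mural and neuron markers all followed the same order of cell types as Hspb1 and Hspb2. In the neuron libraries 1 to 5 the mural sum was 1251, 1116, 2825, 2506 and 1904 TPM, and Hspb2 and this sum were both highest in library 3. The endothelial sum was 8249, 7862, 10877, 11803 and 9215 TPM in these libraries. The neuron marker sum was 1092, 932, 1339, 1109 and 1871 TPM, and Hspb1 and this sum were both highest in library 5. Levels without endothelial and mural cells could not be measured, and the part of these cells in the differences of Hspb1 and Hspb2 was not tested.

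Hspb8 and Hspb6 were highest in astrocytes. Hspb8 works with the co-chaperone Bag3 in the autophagy of damaged proteins. Hspb8 was at 19.7, 24.7, 39.5, 33.1 and 26.1 TPM in the neuron libraries, 62.5, 76.5, 79.6, 55.7 and 61.6 TPM in the astrocyte libraries and 3.18, 3.9, 3.77, 1.75 and 4.4 TPM in the microglia libraries. Neurons stood between the other cell types, without overlap, at a log2 difference of -1.23 from astrocytes (adjusted p = 5.39e-05) and 2.75 from microglia (adjusted p = 1.35e-09). Astrocytes exceeded microglia by 3.98 (15.8-fold). Hspb6, also called HSP20 and known from smooth muscle and heart, showed the same order. Hspb6 stood at 7.38, 7.29, 11.2, 11.1 and 8.67 TPM in neurons, 35.6, 37.6, 28.7, 30.4 and 28.5 TPM in astrocytes and 3.29, 4.73, 4.45, 3.53 and 4.28 TPM in microglia. It differed by -1.72 between neurons and astrocytes (adjusted p = 5.53e-08) and by 2.71 between astrocytes and microglia (adjusted p = 4.18e-11). Its difference of 0.99 between neurons and microglia was just under the fold threshold, at adjusted p = 2.19e-05.

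Hspb3 (chr13:113662896-113663676, mm10) ran the other way. The libraries held 2.29, 1.55, 4.03, 2.57 and 5.78 TPM of Hspb3 in neurons, 0.11, 0.82, 0, 0.35 and 0 TPM in astrocytes and 36.5, 48.01, 97.4, 101 and 64.6 TPM in microglia. Every microglia library was above every other library, and 2 of the 5 astrocyte libraries were at 0. The log2 difference was -4.04 between neurons and microglia (16.4-fold lower in neurons, adjusted p = 1.70e-09). Between astrocytes and microglia it was -5.75 (53.6-fold lower in astrocytes on the TPM + 1 scale, adjusted p = 1.04e-11). Mean TPM was 0.256 in astrocytes and 69.5 in microglia, so this fold understates the ratio of the means. Leaving out microglia libraries 1 and 2, the ones richest in oligodendrocyte transcripts, the log2 differences from microglia were -4.44 for neurons and -6.15 for astrocytes. Neurons also exceeded astrocytes, by 1.71 (adjusted p = 0.000113), at levels of a few TPM. In the microglia libraries the border macrophage markers summed to 1274, 1394, 1882, 1345 and 1273 TPM, and their part in the Hspb3 level was not tested. Hspb3 is known as a binding partner of Hspb2 in muscle.

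Among the HSP70 genes the abundant member Hspa8, the constitutive cytosolic HSP70 that also strips clathrin from vesicles, ranked first among all 72 genes in each cell type. Hspa8 was at 1257, 989, 1304, 1413 and 2132 TPM in the neuron libraries, 772, 686, 992, 1051 and 976 TPM in the astrocyte libraries and 713, 832, 507, 503 and 938 TPM in the microglia libraries. Neuron and microglia libraries did not overlap, at a log2 difference of 1.02 (adjusted p = 0.000313). This call rested on single libraries and on the scaling. The difference was 0.86 without neuron library 5 and 0.92 and 0.91 without microglia library 3 or 4, under the fold threshold. Median-of-ratios scaling, which sets the typical gene equal in all libraries, gave 0.40 (limma, adjusted p = 0.0818). Quantile normalization gave 0.59 (adjusted p = 0.0223). The difference of 0.64 between neurons and astrocytes had an adjusted p of 0.01599 with overlapping libraries. More than any other member Hspa8 shares sequence, since 55.4% of its 150-base stretches also occur in pseudogenes.

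Hspa2 (chr12:76404176-76406938, mm10), an HSP70 needed for sperm development, was the HSP70 gene with the largest difference on the log2(TPM + 1) scale, although its ratio of TPM means was below that of Hspa12b. Hspa2 stood at 12.2, 12.97, 16.4, 19.1 and 18.02 TPM in neurons, 55.6, 54.5, 89.5, 75.3 and 62.1 TPM in astrocytes and 5.17, 5.61, 3.87, 2.16 and 4.87 TPM in microglia. The 3 cell types did not overlap. Hspa2 differed by -2.02 between neurons and astrocytes on the log2 scale (adjusted p = 2.18e-07), and astrocytes were 3.700 above microglia (13-fold, adjusted p = 2.39e-11). In microglia both Hspa2 and the oligodendrocyte markers were lowest in library 4, with 2.16 TPM of Hspa2 and 255 TPM of the markers. Libraries 1 and 2, with 69938 and 52216 TPM of these markers, held 5.17 and 5.61 TPM of Hspa2. The part of oligodendrocyte RNA in these levels was not tested.

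Hspa12b, a distant HSP70 relative known from endothelial cells, was highest in neurons. Hspa12b was at 10.6, 13.4, 16.8, 19.2 and 13.7 TPM in the neuron libraries, 3.6, 1.64, 4.34, 5.93 and 3.2 TPM in the astrocyte libraries and 0.83, 0.79, 0.84, 0.3 and 0.59 TPM in the microglia libraries. Its log2 difference was 1.77 from astrocytes (adjusted p = 3.28e-06) and 3.22 from microglia (adjusted p = 7.37e-10). The endothelial sum and Hspa12b were both highest in neuron library 4, with 11803 TPM and 19.2 TPM, and the part of endothelial RNA was not tested. Hspa12a was at 5.6, 5.68, 8.24, 5.75 and 8.37 TPM in the neuron libraries, 3.74, 4.88, 4.71, 5.34 and 4.07 TPM in the astrocyte libraries and 4.61, 4.15, 4.45, 3.21 and 4.44 TPM in the microglia libraries. This paralogue was called in no comparison, with log2 differences of 0.47 for neurons against astrocytes, 0.57 for neurons against microglia and 0.101 for astrocytes against microglia.

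**Figure D2:**
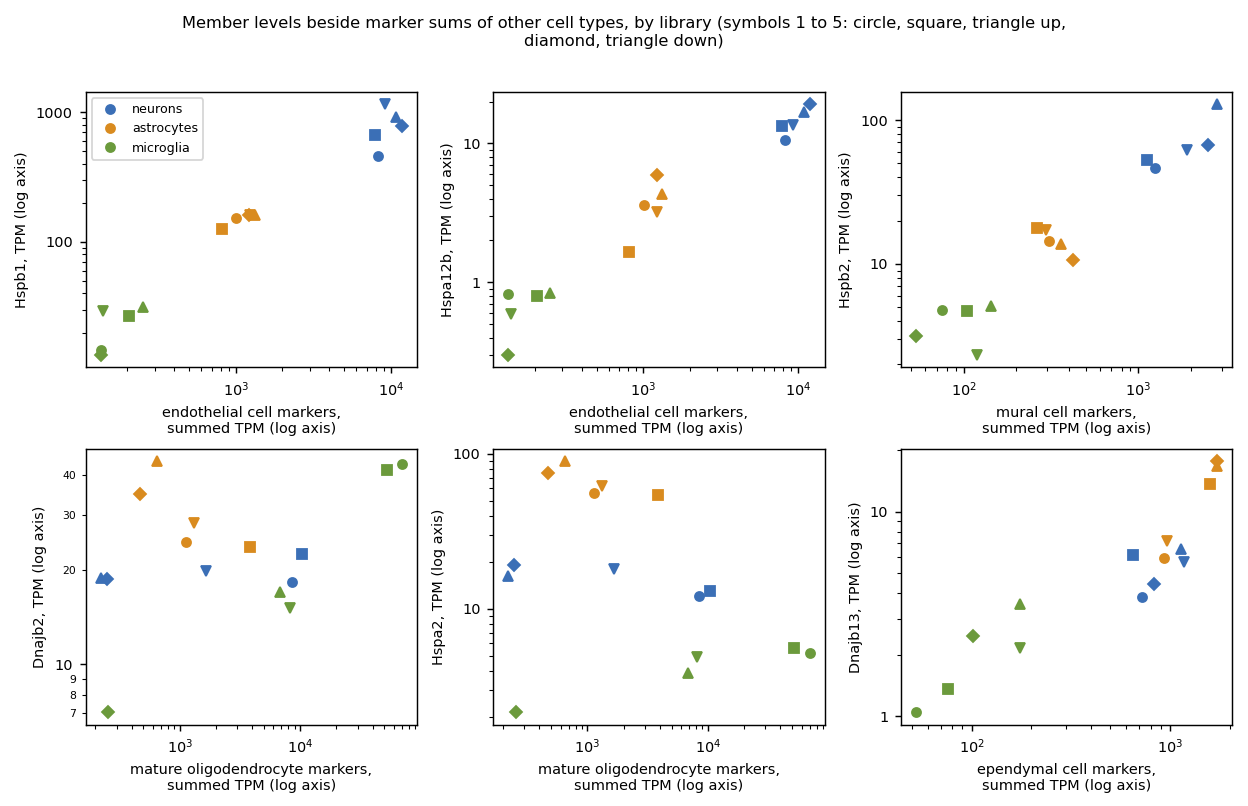
TPM of Hspb1, Hspa12b, Hspb2, Dnajb2, Hspa2 and Dnajb13 (y) against the summed TPM of a marker list of another cell type (x) in each library, both on log axes; colour gives the cell type and the symbol the library number. Neuron libraries hold 7862 to 11803 TPM of endothelial markers beside 458 to 1146 TPM of Hspb1, and Dnajb2 spans 7.04 to 43.4 TPM among microglia libraries that span 255 to 69938 TPM of oligodendrocyte markers.

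The stress-inducible pair Hspa1a and Hspa1b was low in all libraries. Hspa1a stood at 3.4, 3.74, 8.81, 6.46 and 3.63 TPM in neurons, 1.45, 2.17, 4.37, 3.24 and 3.21 TPM in astrocytes and 0.79, 2.43, 3.89, 8.52 and 1.18 TPM in microglia. The libraries held 3, 2.92, 9.06, 5.02 and 3.22 TPM of Hspa1b in neurons, 2.47, 2.27, 4.09, 4.27 and 2.94 TPM in astrocytes and 1.13, 2.75, 5.09, 12.7 and 1.53 TPM in microglia. All ranges overlapped, and no comparison was called, the lowest adjusted p being 0.106 for Hspa1a and 0.488 for Hspa1b. With the replicate number as a block, Hspa1a had adjusted p = 0.0211 for neurons against microglia and 0.0361 for neurons against astrocytes, under the fold threshold in both. Without microglia library 4, the highest of its group, Hspa1a was called higher in neurons than in microglia, by 1.05 (adjusted p = 0.00656). The genes share 39.7% and 40.5% of their 150-base stretches, mainly with each other. Hspa1a was highest in neuron library 3 and Hspa1b in microglia library 4. A list of immediate early and dissociation response genes summed to 939, 917, 2051, 2213 and 735 TPM in neurons, 495, 519, 568, 542 and 487 TPM in astrocytes and 2015, 1908, 5456, 3591 and 1461 TPM in microglia. In each cell type both genes and this list were higher in libraries 3 and 4 than in the others. The margin was narrow for Hspa1a in astrocytes (3.24 against 3.21 TPM). The part of the isolation procedure was not tested. Of the 21 tested genes of the list 11 were called higher in neurons than in astrocytes, against 12.9% of all genes. In neurons 6 were called higher and 8 lower than in microglia, against 29.5% and 9.74% of all genes. In astrocytes 2 were called higher and 12 lower than in microglia, against 32.3% and 10.2% of all genes.

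The exchange factors of the HSP110 family split. Hspa4 was called in no comparison. Hspa4 was at 7.13, 10.9, 11.3, 12.1 and 10.2 TPM in the neuron libraries, 8.63, 7.13, 11.5, 11.4 and 9.42 TPM in the astrocyte libraries and 6.87, 8.31, 9.86, 11.1 and 9.17 TPM in the microglia libraries. Its log2 differences were 0.09 for neurons against astrocytes, 0.17 for neurons against microglia and 0.07 for astrocytes against microglia, with adjusted p from 0.412 to 0.715. Hspa4l had its highest mean in astrocytes. Hspa4l stood at 7.26, 6.54, 9.68, 8.76 and 14.9 TPM in neurons, 13.2, 11.3, 27.3, 23.1 and 20.9 TPM in astrocytes and 2.86, 3.01, 2.14, 1.35 and 3.14 TPM in microglia. Both other cell types exceeded microglia, neurons by 1.55 (adjusted p = 3.05e-05) and astrocytes by 2.48 (adjusted p = 9.14e-08). Hsph1, known as HSP105, had its highest mean in neurons. Hsph1 was at 22.9, 15.3, 19.4, 19.6 and 27.9 TPM in the neuron libraries, 12.2, 10.97, 15.2, 15.8 and 15.5 TPM in the astrocyte libraries and 5.56, 7.59, 3.38, 2.75 and 7.2 TPM in the microglia libraries. Neurons exceeded microglia by 1.86 (adjusted p = 9.87e-07), and astrocytes exceeded microglia by 1.31 (adjusted p = 5.27e-05). Between neurons and astrocytes neither Hspa4l nor Hsph1 was called, and the libraries overlapped for both genes. The log2 differences there were -0.93 for Hspa4l (limma, adjusted p = 0.00487) and 0.55 for Hsph1 (adjusted p = 0.0488).

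The endoplasmic reticulum holds its own HSP70, Hspa5 (BiP), which binds new secretory proteins and keeps the sensors of the unfolded protein response inactive. Its promoter and that of its J-domain partner Dnajc3 both hold the ER stress response element, CCAAT and CCACG with 9 bases between them, in capitals, with a few bases on each side on the plus strand of GRCm38.p6.
Hspa5, chr2:34772020-34772048: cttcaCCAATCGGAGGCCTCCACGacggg
Dnajc3, chr14:118937822-118937850: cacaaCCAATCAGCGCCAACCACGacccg
Of the 59 members with a RefSeq promoter these were the 2 that held the element in either orientation (3.39%), against 0.130% of all genes.

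Hspa5 was at 143, 127, 152, 167 and 172 TPM in the neuron libraries, 223, 168, 304, 322 and 289 TPM in the astrocyte libraries and 227, 259, 317, 324 and 260.2 TPM in the microglia libraries. Neurons were lowest on average, and overlapped with astrocytes but not with microglia. The log2 difference was -0.75 between neurons and astrocytes (adjusted p = 0.00103) and -0.86 between neurons and microglia (adjusted p = 0.000178), under the fold threshold. With median-of-ratios scaling, which sets the typical gene equal in all libraries, the difference from microglia was -1.47 and passed. Dnajc3 stood at 17.6, 17.1, 24.4, 22.5 and 19.3 TPM in neurons, 22.3, 20.7, 37.2, 32.99 and 28.2 TPM in astrocytes and 14.2, 16.3, 19.4, 22.7 and 18.9 TPM in microglia. It was called in no comparison.

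Dnajb9, an ER J-domain protein that restrains the stress sensor IRE1, was higher in astrocytes than in both other cell types. The libraries held 8.09, 6.96, 10.1, 8.53 and 9.96 TPM of Dnajb9 in neurons, 17.6, 14.7, 27.9, 25.4 and 19.3 TPM in astrocytes and 6.74, 8.19, 8.95, 8.73 and 9.15 TPM in microglia. No astrocyte library overlapped with another cell type. Its log2 difference was -1.15 between neurons and astrocytes (adjusted p = 2.08e-05) and 1.203 between astrocytes and microglia (adjusted p = 6.34e-06). With median-of-ratios scaling the difference from microglia was 0.57 and missed the fold threshold. Hspa13, an HSP70-like protein of the ER membrane fraction, had a like order. Hspa13 was at 5.17, 4.03, 5.71, 7.51 and 5.57 TPM in the neuron libraries, 8.4, 7.05, 17.1, 15.7 and 12.1 TPM in the astrocyte libraries and 4.13, 4.14, 4.7, 7.12 and 4.43 TPM in the microglia libraries. Neurons differed by -0.94 from astrocytes (adjusted p = 0.00195), under the threshold, and astrocytes 1.100 above microglia (adjusted p = 0.000298). The call was lost without astrocyte library 3 (0.96) or 4 (0.99), and the ranges of astrocytes and microglia overlapped through microglia library 4.

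Dnajc10, an ER J-domain protein that reduces disulfide bonds of misfolded clients, went against this order. It averaged 18.2 ± 3.05 TPM in neurons, 11.1 ± 1.45 TPM in astrocytes and 5.02 ± 1.23 TPM in microglia, without overlap. Neurons exceeded microglia by 1.68 (adjusted p = 5.60e-08), astrocytes exceeded microglia by 1.02 (adjusted p = 2.33e-05), and the call between astrocytes and microglia was lost without astrocyte library 3 (0.95) or microglia library 1 (0.95), 2 or 5 (0.99). Dnajb11, another ER J-domain protein, averaged 41.1 ± 6.52 TPM in neurons, 44.4 ± 6.16 TPM in astrocytes and 47.5 ± 6.63 TPM in microglia and was called in no comparison. The 7 ER genes counted here summed to 262 ± 33.2 TPM in neurons, 397 ± 88.6 TPM in astrocytes and 373 ± 54.6 TPM in microglia. Hspa5 was the largest part of each sum, with means of 152 TPM in neurons, 261 TPM in astrocytes and 278 TPM in microglia.

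In mitochondria Hspd1 (HSP60) forms the folding chamber and Hspe1 (HSP10) its lid. The genes stand head to head on chromosome 1, with RefSeq starts 216 bases apart, and the interval holds a run of 4 alternating heat shock element units.
Hspd1 and Hspe1, chr1:55088053-55088082, plus strand: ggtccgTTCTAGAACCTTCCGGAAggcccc
The 18 bases in capitals lie 127 to 144 bases before the Hspd1 start and 72 to 89 bases before the Hspe1 start. The element of 3 units, GAA, TTC and GAA with 2 bases between neighbours, was found before Hspd1, Hspe1 and Dnajb6, or 5.08% of 59 members, against 0.514% of all genes. It was searched on both strands, and every match of it also holds the shorter pair. The matches of Hspd1 and Hspe1 are the same bases, counted for each gene.

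Hspd1 stood at 73.7, 63.7, 82.7, 79.8 and 84.99 TPM in neurons, 56.4, 58.8, 78.9, 75.8 and 67.2 TPM in astrocytes and 51.2, 54.8, 42.6, 45.8 and 50.3 TPM in microglia. Hspe1 was at 178, 173, 209, 202 and 197 TPM in the neuron libraries, 313, 307, 268, 265 and 259 TPM in the astrocyte libraries and 159, 192, 160.2, 159 and 188 TPM in the microglia libraries. Neither gene was called. Hspe1 differed at adjusted p = 0.000251 between neurons and astrocytes, with a log2 difference of -0.55 and no overlap, while Hspd1 differed by 0.19 (adjusted p = 0.205). The ratio of Hspe1 to Hspd1 was 2.5 ± 0.149 in neurons, 4.30 ± 1.01 in astrocytes and 3.51 ± 0.260 in microglia, and the neuron range of 2.32 to 2.72 lay below the ranges of astrocytes and microglia. Both transcripts share part of their sequence with other loci, 18.6% of 150-base stretches for Hspd1 and 14.1% for Hspe1.

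Hspa9 (mortalin), the mitochondrial HSP70 that pulls in imported proteins, was highest in astrocytes. Hspa9 was at 25.4, 26.5, 37.03, 43.9 and 28.6 TPM in the neuron libraries, 50.3, 49.1, 63.8, 60.2 and 50.9 TPM in the astrocyte libraries and 18.3, 21.01, 19.8, 18.7 and 19.8 TPM in the microglia libraries. Astrocytes exceeded microglia by 1.44 (adjusted p = 9.31e-08), and neurons differed by -0.77 from astrocytes (adjusted p = 0.000261), under the threshold.

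Dnajc15, a J-domain protein of the inner mitochondrial membrane, was also highest in astrocytes. Dnajc15 stood at 19.4, 19.5, 28.7, 27.8 and 30.9 TPM in neurons, 68.4, 48.4, 58.4, 75.9 and 42.5 TPM in astrocytes and 14.98, 15.3, 13.8, 18.1 and 13.4 TPM in microglia. Ranges did not overlap, with -1.18 for neurons against astrocytes (adjusted p = 1.89e-05) and 1.87 for astrocytes against microglia (adjusted p = 2.99e-08). Its relative Dnajc19, which sits at the same import channel, averaged 159 ± 22.7 TPM in neurons, 147 ± 7.95 TPM in astrocytes and 124 ± 18.1 TPM in microglia and was called in no comparison. The 8 mitochondrial genes counted here summed to 547 ± 59.7 TPM in neurons, 677 ± 28.3 TPM in astrocytes and 425 ± 25.3 TPM in microglia.

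The cytosolic J-domain proteins of class A and B are the general partners of HSP70. Dnaja1 was the most abundant of them in every cell type. The libraries held 314, 288, 338, 358 and 398 TPM of Dnaja1 in neurons, 181, 168, 246, 239 and 227 TPM in astrocytes and 152, 174, 120.2, 101 and 152 TPM in microglia. Neurons were above all other libraries, by 1.29 against microglia (adjusted p = 8.46e-07) and by 0.68 against astrocytes (adjusted p = 0.00125) without passing the fold threshold there. Dnajb1, the partner of the inducible HSP70, was called in no comparison. Dnajb1 was at 25.5, 24.2, 30.6, 33.95 and 33.3 TPM in the neuron libraries, 16.5, 16.7, 26.8, 26.3 and 23.1 TPM in the astrocyte libraries and 19.9, 23.5, 25.3, 23.2 and 26.8 TPM in the microglia libraries. Its largest difference was 0.43 between neurons and astrocytes (adjusted p = 0.0296). Dnajb6, which suppresses the aggregation of polyglutamine proteins, was abundant in all cells. Dnajb6 stood at 116, 96.3, 147, 129 and 143 TPM in neurons, 113, 110.0, 137, 129 and 115 TPM in astrocytes and 68.4, 74.3, 84.9, 78.5 and 80.2 TPM in microglia. It fell short of the fold threshold in every comparison and was higher in neurons than in microglia at adjusted p = 8.92e-05 and a difference of 0.69.

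Dnajb4 was highest in astrocytes. Dnajb4 was at 20.7, 15.5, 19.8, 19.6 and 23.2 TPM in the neuron libraries, 32.03, 32.6, 50.9, 48.04 and 36.6 TPM in the astrocyte libraries and 10.2, 12.5, 11.9, 11 and 11.4 TPM in the microglia libraries. Astrocytes exceeded microglia by 1.701 (adjusted p = 1.51e-08) with no overlap. Dnajb2, which carries ubiquitin-binding motifs and is linked to neuronal proteostasis, was spread most in microglia. Dnajb2 was at 18.3, 22.5, 18.8, 18.7 and 19.9 TPM in the neuron libraries, 24.6, 23.6, 44.3, 34.8 and 28.2 TPM in the astrocyte libraries and 43.4, 41.7, 16.97, 7.04 and 15.1 TPM in the microglia libraries. Microglia libraries 1 and 2 were highest and library 4 lowest, as were their oligodendrocyte sums of 69938, 52216 and 255 TPM and their Cryab levels. With all libraries Dnajb2 was called in no comparison; without microglia libraries 1 and 2 astrocytes exceeded microglia by 1.24 (adjusted p = 0.000292). The part of oligodendrocyte RNA was not tested.

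Dnajb13, a radial spoke protein of motile cilia, averaged 5.32 ± 1.15 TPM in neurons, 12.2 ± 5.39 TPM in astrocytes and 2.11 ± 0.976 TPM in microglia. In the astrocyte libraries it was at 5.91, 13.7, 16.7, 17.6 and 7.21 TPM, and the 8 ependymal markers summed to 934, 1599, 1733, 1726 and 971 TPM in the same libraries. Libraries 2, 3 and 4 were highest in both. The part of ependymal RNA in its difference of 2.03 between astrocytes and microglia (adjusted p = 4.29e-06) was not tested.

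Class C collects J-domain proteins with special tasks. Dnajc5, the cysteine string protein that keeps the SNARE protein SNAP-25 folded at synapses, was called in no comparison. Dnajc5 stood at 28.7, 26.3, 26.95, 25.9 and 22.6 TPM in neurons, 15.02, 16.8, 29.4, 27.3 and 27.2 TPM in astrocytes and 20.4, 13.7, 21.5, 22.5 and 24.1 TPM in microglia. All ranges overlapped, and its largest difference was 0.36, between neurons and microglia (adjusted p = 0.105). Its low paralogue Dnajc5b was the class C gene called higher in neurons than in both others, and only its neuron libraries took it past the filter on low values. The libraries held 4.17, 1.75, 3.29, 1.7 and 1.14 TPM of Dnajc5b in neurons, 0.1, 0.11, 0, 0.17 and 0 TPM in astrocytes and 1.36, 1.28, 0.26, 0 and 0.16 TPM in microglia. Neurons overlapped with microglia, and the difference of 1.097 from microglia (adjusted p = 0.001004) dropped below 1 without neuron library 1 or 3 or microglia library 4 (0.93, 0.99 and 0.95). Against astrocytes it was 1.59 (adjusted p = 4.58e-05).

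Dnajc6, the neuronal auxilin that recruits Hspa8 to clathrin coats, was low throughout. Dnajc6 was at 3.57, 3.65, 2.94, 2.66 and 6.32 TPM in the neuron libraries, 1.43, 1.69, 1.5, 2.07 and 2 TPM in the astrocyte libraries and 2.02, 1.6, 0.45, 0.05 and 0.54 TPM in the microglia libraries. Neuron library 5 was highest, and neurons exceeded microglia by 1.39 without overlap (adjusted p = 0.000101). Dnajc24 acts in making diphthamide, the modified residue of translation elongation factor 2. Dnajc24 stood at 20.9, 22.1, 30.5, 35.4 and 21.1 TPM in neurons, 69.5, 62.7, 59.8, 59.4 and 55.5 TPM in astrocytes and 40.8, 53.6, 47.2, 40.7 and 37.5 TPM in microglia. Neurons differed by -1.24 from astrocytes (adjusted p = 2.46e-06) and -0.76 from microglia (adjusted p = 0.000283), below every library of both. Dnajc28 was 1 of the 2 members called lower in neurons than in microglia. Dnajc28 was at 2.59, 1.84, 3.25, 3.92 and 2.82 TPM in the neuron libraries, 3.61, 2.43, 6.05, 5.46 and 4.17 TPM in the astrocyte libraries and 6.44, 7.98, 8.46, 11.6 and 6.29 TPM in the microglia libraries. Its difference was -1.23 (adjusted p = 6.76e-05).

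**Figure D3:**
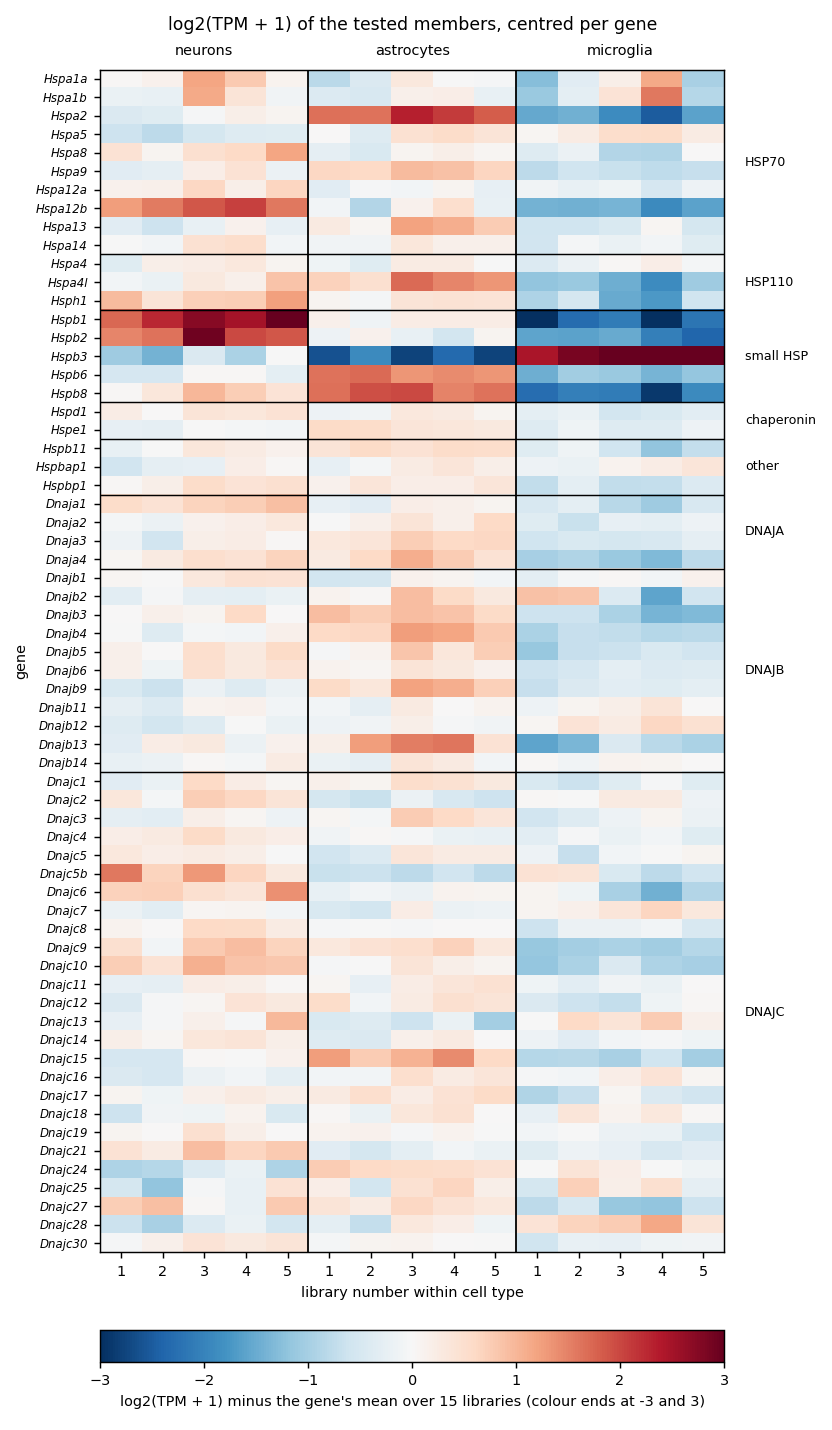
log2(TPM + 1) of the tested heat shock and DnaJ genes, all but 1 of the 65 (rows, by family) in the 15 libraries (columns, by cell type), minus each gene's mean over all libraries; red is above and blue below that mean, and the colour ends at -3 and 3. Among the small heat shock proteins, Hspb1 and Hspb2 are red in neurons, Hspb6 and Hspb8 red in astrocytes and Hspb3 red in microglia.

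Neurons set against astrocytes gave 5 members called higher, 7.69% of the 65 tested, against 12.9% of all genes. They were Hspb1, Hspb2, Hspa12b, Hspb3 and Dnajc5b. In the other direction 7 were called lower in neurons, 10.8% against 12.7% of all genes, among them Hspa2, Hspb6, Dnajc24, Hspb8, Dnajc15 and Dnajb9. The median log2 difference of the members was -0.10, against -0.03 over all genes. At adjusted p below 0.05 and any size, 34 members passed, or 52.3%, against 54.6% of all genes. In either direction 12 members were called, 18.5% against 25.6% of all genes.

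Neurons set against microglia gave 18 members called higher, 27.7% against 29.5% of all genes, and 2 called lower, 3.08% against 9.74%, or 20 in either direction, 30.8% against 39.3%. Without the fold threshold 45 members passed, 69.2% against 68.5% of all genes. Besides those described, the higher members included Dnajc9, a histone chaperone, at 52.1 ± 12.9 TPM in neurons, 47.3 ± 5.36 TPM in astrocytes and 16.6 ± 1.23 TPM in microglia (1.56, adjusted p = 1.25e-07). Dnaja4 was at 11.5 ± 1.95 TPM in neurons, 14 ± 3.37 TPM in astrocytes and 3.69 ± 0.652 TPM in microglia (1.41, adjusted p = 1.22e-06), although 44.1% of its exon bases overlap Wdr61 on the opposite strand. Dnajc27, Dnajb3, Dnajb13 and Dnajb5 differed by 1.0 to 1.30. The median of the members was 0.50, against 0.48 over all genes. Median-of-ratios scaling moved the median of all genes by -0.52, and under it the calls were 9 higher and 6 lower, or 60% higher in place of 90%. Over all genes the share of calls that were higher went from 75.2% to 55.4% under this scaling. The calls of Dnaja1, Dnaja4, Dnajb3, Dnajb5, Dnajb13, Dnajc5b, Dnajc9, Dnajc27 and Hspa8 were lost there, and Hspa5, Dnajb12, Dnajc7 and Dnajc24 were called lower in neurons.

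Astrocytes set against microglia gave 22 members called higher, 33.8% against 32.3% of all genes, and 1 called lower, 1.54% against 10.2%, or 23 in either direction, 35.4% against 42.5%. Without the fold threshold 41 members passed, 63.1% against 72.3% of all genes. The largest differences were those of Hspb8, Hspa2, Hspb1, Hspb6 and Hspa4l, from 2.48 to 3.98, none with overlapping libraries, and the lower member was Hspb3. Dnaja4, Dnajc9, Dnajc27, Dnajb3 and Dnajb5 were called here too. So was Hspb11, an intraflagellar transport protein that carries the Hsp name, at 28.3 ± 4.4 TPM in neurons, 37.4 ± 2.34 TPM in astrocytes and 17.5 ± 4.799 TPM in microglia (1.09, adjusted p = 1.58e-05). The median of the members was 0.58, against 0.57 over all genes. Median-of-ratios scaling moved the median of all genes by -0.55 and left 12 members higher and 6 lower, or 66.7% higher in place of 95.7%. Over all genes this share went from 76% to 53% under the same scaling. The calls lost there included those of Dnajb5, Dnajb9, Dnajc9, Dnajc10, Dnajc27, Hspa9, Hspa13, Hspb11 and Hsph1, and Dnajb12, Dnajc2, Dnajc7, Dnajc13 and Dnajc28 were called lower in astrocytes.

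**Figure D4:**
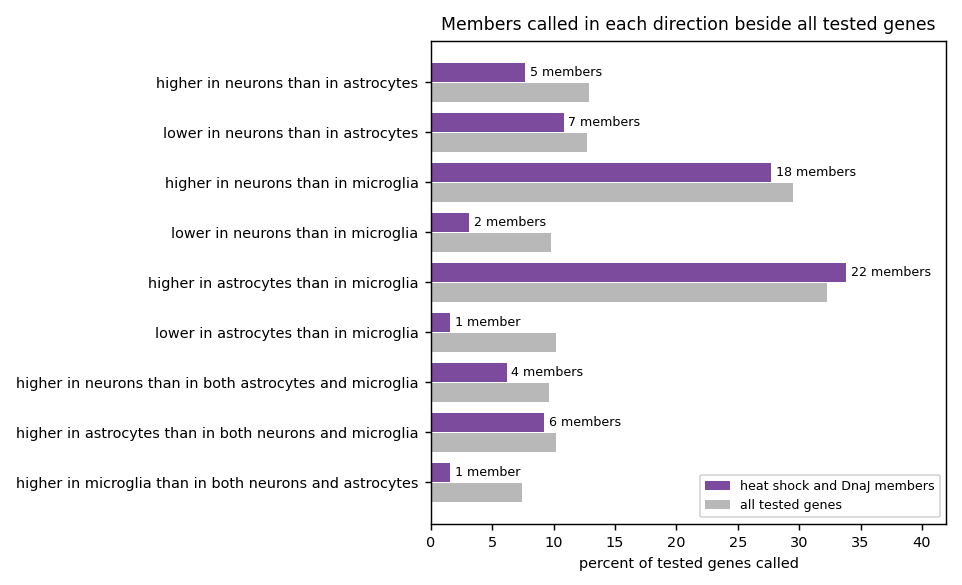
Percent of tested genes called in each direction of the 3 comparisons, and in 1 cell type over both others, for the 65 tested heat shock and DnaJ genes and for all 13351 tested genes; bars start at 0 and the number of members is printed at each. The share of members was above that of all genes in 1 of 9 rows, astrocytes over microglia (33.8% against 32.3%), and furthest below it for genes lower in astrocytes than in microglia (1.54% against 10.2%).

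Genes that work with these chaperones were counted from lists. Beside the counts below, 25.6% of all 13351 tested genes were called in either direction between neurons and astrocytes. Between neurons and microglia this share was 39.3%, and between astrocytes and microglia 42.5%. At adjusted p below 0.05 and any size the shares were 54.6%, 68.5% and 72.3% in the same order. At an unadjusted p below 0.05 they are at least as large. Of 4 HSP90 genes, the cytosolic pair Hsp90aa1 and Hsp90ab1 was called higher in neurons than in both other cell types. Hsp90aa1 averaged 1425 ± 457 TPM in neurons, 612 ± 102 TPM in astrocytes and 541 ± 170.1 TPM in microglia. Hsp90ab1 averaged 1365 ± 361 TPM in neurons, 443 ± 52.1 TPM in astrocytes and 609.9 ± 132 TPM in microglia. Trap1, the mitochondrial HSP90, was called higher in astrocytes (37.5 ± 4.76 TPM) than in microglia (16.1 ± 1.42 TPM).

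Of 18 HSP90 co-chaperones, limma called 0 between neurons and astrocytes, where 9 were at an unadjusted p below 0.05, and called 4 higher and 1 lower in neurons than in microglia, and 4 higher and 1 lower in astrocytes than in microglia. The lower one was in both cases Fkbp5, a stress-hormone-responsive immunophilin, at 7.80 ± 2.49 TPM in neurons, 3.95 ± 1.16 TPM in astrocytes and 19.3 ± 8.995 TPM in microglia. Of 10 HSP70 exchange factors, Sil1, which serves Hspa5 in the ER, was called lower in neurons than in astrocytes, at 27.96 ± 8.08 TPM in neurons and 71.5 ± 6.24 TPM in astrocytes. Bag2 was called higher in neurons than in microglia, at 17.8 ± 3.46 TPM in neurons, 20.9 ± 4.55 TPM in astrocytes and 3.71 ± 0.477 TPM in microglia. Bag2, Bag3 and Sil1 were called higher in astrocytes than in microglia. Bag3, the partner of Hspb8, averaged 4.74 ± 1.002 TPM in neurons, 9.06 ± 2.25 TPM in astrocytes and 2.69 ± 0.773 TPM in microglia.

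Of 4 tested genes of heat shock factors and their binding proteins, 2 were called, both higher in astrocytes than in microglia. Hsf2 averaged 4.15 ± 0.943 TPM in neurons, 6.71 ± 2.60 TPM in astrocytes and 2.22 ± 0.847 TPM in microglia, and Hsbp1l1 was at 1.44 ± 0.427 TPM in astrocytes and 0.172 ± 0.0884 TPM in microglia. Hsf1, the main factor of the heat shock response, was called in no comparison, at 14.0 to 20.6 TPM in neurons, 15.2 to 24.5 TPM in astrocytes and 8.83 to 19.8 TPM in microglia. Of 14 tested genes of the cytosolic chaperonin and prefoldin, 2 were higher in neurons than in microglia and 2 higher in astrocytes than in microglia, all of them prefoldin subunits. Of 19 genes of ER folding and the unfolded protein response, limma called 0 between neurons and astrocytes, where 7 were at an unadjusted p below 0.05, and 2 were called lower both in neurons and in astrocytes than in microglia. They were Sdf2l1, at 26.95 ± 3.96 TPM in neurons, 20.4 ± 3.10 TPM in astrocytes and 166 ± 26.3 TPM in microglia, and Edem1, at 2.502 ± 1.14, 3.46 ± 1.6 and 16.5 ± 5.82 TPM in neurons, astrocytes and microglia. The 4 tested J-domain genes that do not carry the Dnaj name were called in no comparison by limma; at an unadjusted p below 0.05 they numbered 0 for neurons against astrocytes, 3 for neurons against microglia and 3 for astrocytes against microglia.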

How the data were processed

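The deposited table gives TPM per gene for the 15 libraries, as computed by the authors and corrected for transcript length; all 15 columns were used. The submitters' processing notes name the mm10 genome build and the tools RSEM 1.2.28, STAR 2.7.1a, DESeq2 1.36.0 and Trim Galore 0.6.4. Per the labels' protocols, cDNA was amplified, enriched for polyA and sequenced as paired reads of 150 nt on a NovaSeq instrument. The annotation and the strand setting are not given in the sources used here. TPM keeps no depth, so depth per library is unknown and no interval from counts is given.

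Values were taken as log2(TPM + 1), a pseudocount of 1. A gene needed 1 TPM or more in 5 or more libraries, and the 13351 of 20610 genes that had it (65 of 72 members) entered 1 fit of all 15 libraries with a mean per cell type in limma 3.58.1 (R 4.3.3), with variances moderated along the mean and p adjusted over all tested genes by Benjamini-Hochberg. The script was tested on simulated data. Python 3.11.15, pandas 2.3.3, numpy 2.4.6 and matplotlib 3.10.9 did the rest. Sequences are from RefSeq on GRCm38.p6, whose promoter table matched 59 members, and gene positions and shared 150-base stretches from GENCODE on mm10.

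Members and gene lists were chosen with earlier results of these data known. Counts of members cover every member, but 1 member is not reported here by name or value. Values per library are given for members called in 1 cell type over both others, for the called members with the largest differences without overlap and for a fixed core by role. Dnajb11, Dnajb13, Dnajc9, Dnajc10, Dnajc19, Dnaja4 and Hspb11 were named by their means after their values were seen. Cell types share replicate numbers. Deviations of same-numbered neuron and microglia libraries all correlated above 0.1 (0.216 to 0.382), which by rule pairs them; those with astrocytes did not (-0.0329 to 0.249). This comes from the data and no label states it. Libraries of different numbers were not correlated, so pairs and larger groups of numbers cannot be told apart. The p-values given are from fits without this pairing, except where the block by replicate number is named. Alternatives were other pseudocounts, filters, scalings, fits and libraries left out.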

Additional observations from a re-analysis of the deposited data

Results flagged for a closer look

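In 8 of the 192 sets of 5 libraries, 1 library lay far from the other 4 by Dixon's criterion, against about 5% by chance. Hspb2 was at 128.96 TPM in neuron library 3 and at 46.75 to 67.22 TPM in the other neuron libraries. Dnajc4 was also highest in that library, at 59.06 TPM against 45.08 to 48.55 TPM. Neuron library 5 held 8.3 TPM of Dnajc13, a J-domain protein of endosomes, against 3.0 to 4.27 TPM, and 6.32 TPM of Dnajc6 against 2.66 to 3.65 TPM. Dnajb3 stood at 3.57 TPM in neuron library 4 and at 2.03 to 2.34 TPM in the others.

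Among astrocytes, Hspb1 was lowest in library 2, at 125.06 TPM against 153.19 to 161.1 TPM. Among microglia, Dnajc10 reached 7.14 TPM in library 3 against 3.95 to 4.8 TPM, and Hspa13 reached 7.12 TPM in library 4 against 4.13 to 4.7 TPM.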

How the results depend on the processing

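Over 26 alternatives no called difference changed direction, and 28 of 55 called differences of a member between 2 cell types kept their call in all of them, counting a gene that an alternative no longer tested as lost. Alternatives that leave the compared log2 values as they are, such as the block by replicate number, could not change a direction. The calls against microglia depended most on scaling. With median-of-ratios scaling 9 members were higher and 6 lower in neurons than in microglia, 12 higher and 6 lower in astrocytes than in microglia, and 4 higher in microglia than in both others. With quantile normalization the same counts were 9, 6, 11, 4 and 2. Over all genes, 75.2% of the calls of neurons against microglia were higher unscaled, 55.4% with median-of-ratios and 55.6% with quantile. For astrocytes against microglia these shares of all genes were 76%, 53% and 54.7%. Members lower in astrocytes than in microglia numbered 3 with a pseudocount of 0.1, 2 without all libraries numbered 1 and 2, and 1 to 2 when 1 library at a time was left out. Leaving out 1 library brought the differences of Hspa8, Dnajb5, Dnajb13, Dnajc5b, Dnajc10, Hspa13 and Hspb11, among others, under the fold threshold in at least 1 comparison, with adjusted p still below 0.05; the cause was not tested. Calls were also gained. Without astrocyte library 1 or 2, members lower in neurons than in astrocytes numbered 10 in place of 7, and members higher in astrocytes than in both others 9 in place of 6, with Dnajb4, Hspa13 and Hspa4l gained in the first count under both. The fit with the replicate number as a block kept all 12 calls of neurons against astrocytes, all 20 of neurons against microglia and all 23 of astrocytes against microglia. It could add none. Each number occurs once per cell type, so the log2 differences stayed the same, and every member at 1 or more was already called. Under that block the counts at any size were 39 for neurons against astrocytes, 50 for neurons against microglia and 46 for astrocytes against microglia. TPM values carry no depth, so low members such as Dnajc5b and Dnajc6 are limited in a way that could not be measured.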

Other observations

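Several of the members called in no comparison were among the most abundant. Dnajc8, a J-domain protein associated with splicing factors, averaged 153 ± 28.2 TPM in neurons, 120.2 ± 2.35 TPM in astrocytes and 99.1 ± 15.6 TPM in microglia. Dnajc7, which carries tetratricopeptide repeats and binds both HSP70 and HSP90, averaged 77.8 ± 8.796 TPM in neurons, 71.6 ± 15.8 TPM in astrocytes and 103 ± 15.97 TPM in microglia, the highest mean being that of microglia. Dnaja2 averaged 60.02 ± 8.26 TPM in neurons, 68.3 ± 11.7 TPM in astrocytes and 44.3 ± 5.93 TPM in microglia. The less abundant Dnaja3, a mitochondrial J-domain protein, was also called in no comparison. It averaged 16.4 ± 3.58 TPM in neurons, 24.8 ± 3.12 TPM in astrocytes and 11.97 ± 1.12 TPM in microglia.

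Dnajc2, which sits at the exit of the ribosomal tunnel with Hspa14, averaged 23.9 ± 5.05 TPM in neurons, 12.2 ± 1.91 TPM in astrocytes and 18.7 ± 2.48 TPM in microglia and differed by 0.897 between neurons and astrocytes (limma, adjusted p = 0.000129), without overlapping libraries. Dnajc21, needed for maturation of the large ribosomal subunit, averaged 10.8 ± 2.15 TPM in neurons, 5.28 ± 0.706 TPM in astrocytes and 5.16 ± 0.516 TPM in microglia and differed by 0.898 (adjusted p = 9.37e-05), also without overlap. Hspa14 itself averaged 34.1 ± 7.58 TPM in neurons, 32.03 ± 4.38 TPM in astrocytes and 25.1 ± 3.67 TPM in microglia and differed by 0.07 (adjusted p = 0.717). These genes were picked after their values were seen.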
